A study of Bos taurus with 6 samples.

Results

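CCDC184 (ENSBTAG00000002390), GPR160 (ENSBTAG00000048011) and NXPH1 (ENSBTAG00000006924) were followed through the mammary gland of 6 Holstein heifers, and they are 3 of the 24579 genes counted in each animal. They were chosen by their normalized counts: every heifer gestated under maternal heat stress had a higher value than any heifer gestated under maternal cooling. Their difference between the groups is therefore given as a description, without a test. All 3 passed the filter on low counts that kept 14724 genes, but NXPH1 passed it only through the group in which it is high.

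RNA was sequenced from mammary biopsies taken when the heifers were 21 days into milk. The dams of 3 in utero heat stressed heifers (IUHT-H 9196, 9203 and 9204) had shade without active cooling during the last 6 to 7 weeks of gestation, and the dams of 3 in utero cooled heifers (IUCL-H 9202, 9214 and 9223) had shade, fans and soakers. A further cooled heifer described by the study was not analysed here. From birth onwards all 6 were kept under the same management, and each heifer gave 1 library. A biopsy holds secretory, myoepithelial, stromal and immune cells together, so that fewer cells of a type and less RNA per cell cannot be told apart. Total counts were 75754791, 80164187 and 84969285 in IUHT-H 9196, 9203 and 9204 and between 91696849 and 101361294 in IUCL-H. Between 64.7% and 74.7% of each library fell on the 10 genes with most counts over the 6 heifers together. The largest share was in IUHT-H 9204. No defining marker of a mammary cell type could be paired with an identifier in the files, so the labelled tissue was not checked against its markers.

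The 3 genes belong to unrelated families. GPR160 encodes an orphan receptor of the rhodopsin class, whose members cross the cell membrane repeatedly and typically signal through G proteins inside the cell. The neuropeptide CART has been proposed as the ligand of GPR160. NXPH1 encodes neurexophilin-1, a secreted glycoprotein that binds the extracellular part of alpha-neurexins, which are adhesion molecules of synapses, and it is best known from the brain. CCDC184 encodes a small protein with a predicted coiled coil, a helix by which proteins pair, and its function is largely unknown.

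CCDC184 had 938, 1663 and 3579 counts in IUHT-H 9196, 9203 and 9204, and 246, 181 and 100 counts in IUCL-H 9202, 9214 and 9223. As CPM, the count relative to the TMM-scaled size of its library, the IUHT-H values were 10.4, 17.7 and 51.9. Those of the IUCL-H were 2.45, 2.0 and 1.14. The groups were far apart: the lowest IUHT-H, 9196, was 4.26-fold above the highest IUCL-H, 9202. In raw counts the separation was also complete, although every IUHT-H library was smaller than every IUCL-H library.

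IUHT-H averaged 26.7 ± 22.1 CPM of CCDC184 and IUCL-H averaged 1.86 ± 0.664 CPM (SD, n = 3 each). On the log2 scale the fitted difference was 3.83 (SE 0.61). The spread within IUHT-H was wide. IUHT-H 9204 alone carried 64.8% of the summed CPM of the 3 IUHT-H, and it was 4.98-fold above IUHT-H 9196. On the log2 scale the SD within IUHT-H was 1.18, larger than that of 98.1% of all tested genes, whose median was 0.203. Within IUCL-H the SD was 0.563, larger than that of 88.4% of the genes. The size of the increase depended on 1 heifer: without IUHT-H 9204 the log2 fold change of CCDC184 was 2.91, a 7.52-fold difference in place of 14.3-fold.

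Counting error was small beside these differences. The 95% exact Poisson intervals, which cover counting error only, ran from 9.76 to 11.1 CPM in IUHT-H 9196 and from 2.15 to 2.77 CPM in IUCL-H 9202. In the order of the 6 heifers, IUCL-H 9202 and 9214 were the only neighbours whose intervals overlapped for CCDC184.

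GPR160 had 1158, 1345 and 1663 counts in IUHT-H 9196, 9203 and 9204, and 684, 665 and 798 counts in IUCL-H 9202, 9214 and 9223. The corresponding IUHT-H levels were 12.9, 14.3 and 24.1 CPM, against 6.80, 7.36 and 9.10 CPM among the IUCL-H. The groups of the receptor gene did not overlap, but they lay closer together than those of CCDC184. The lowest IUHT-H, 9196, was 1.41-fold above the highest IUCL-H, 9223.

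GPR160 averaged 17.1 ± 6.12 CPM across IUHT-H and 7.75 ± 1.20 CPM across IUCL-H (SD, n = 3 each). The fitted log2 difference was 1.14 (SE 0.25), or 2.20-fold. IUHT-H 9204 was again the highest and carried 47% of the summed CPM of its group. The TMM factor of this library, 0.812, was the lowest of the 6. Scaled by library size only, GPR160 had 15.3, 16.8 and 19.6 CPM in IUHT-H 9196, 9203 and 9204, and the gap between the groups widened to 1.86-fold. Without IUHT-H 9204 the log2 fold change of GPR160 was 0.81. The log2 SD of GPR160 was 0.484 within IUHT-H, above 84.9% of all tested genes, and 0.216 within IUCL-H, close to the median of 0.217. The counting intervals of IUHT-H 9196 and 9203 overlapped, as did those of IUCL-H 9202 and 9214.

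NXPH1 was detected at a very low level. It had 30, 26 and 10 counts in IUHT-H 9196, 9203 and 9204, and 2, 0 and 1 counts in IUCL-H 9202, 9214 and 9223. This gave 0.333, 0.277 and 0.145 CPM for the IUHT-H, against 0.0199, 0 and 0.0114 CPM for the IUCL-H. All 3 IUCL-H were below the level of 3 counts, which corresponded to between 0.0298 and 0.0342 CPM in these libraries, while all 3 IUHT-H were above it. A count of 0 in IUCL-H 9214 allows a level of up to 0.0332 CPM, taken as 3 counts here and for every other count of 0, so the transcript was not detectable at this depth rather than absent.

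The whole contrast of NXPH1 rested on 66 counts in IUHT-H against 3 counts in IUCL-H. The ratio of the pooled rates was 24.2, with a 95% Clopper-Pearson interval for counting error alone from 7.94 to 121. The fitted log2 difference of NXPH1 was 4.40 (SE 0.73), and it depended on the prior count added before the ratio was taken. With a prior count of 2 in place of edgeR's default it was 3.06. With IUCL-H 9202 left out, which held 2 of the 3 IUCL-H counts, it was 5.17, and with IUCL-H 9214 left out it was 3.88. The means were 0.252 ± 0.0965 CPM for IUHT-H and 0.0104 ± 0.00997 CPM for IUCL-H (SD, n = 3 each).

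For NXPH1 the counting intervals of the groups overlapped for 1 pair of heifers, which does not show equal levels. The interval of the lowest IUHT-H, 9204, began at 0.0695 CPM, and that of the highest IUCL-H, 9202, ended at 0.0718 CPM. IUHT-H 9196 and 9203, by contrast, had lower limits of 0.225 and 0.181 CPM, above the upper limit of every IUCL-H. At each of the 5 steps in the order of the 6 heifers the intervals of the neighbours overlapped.

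**Figure D1:**
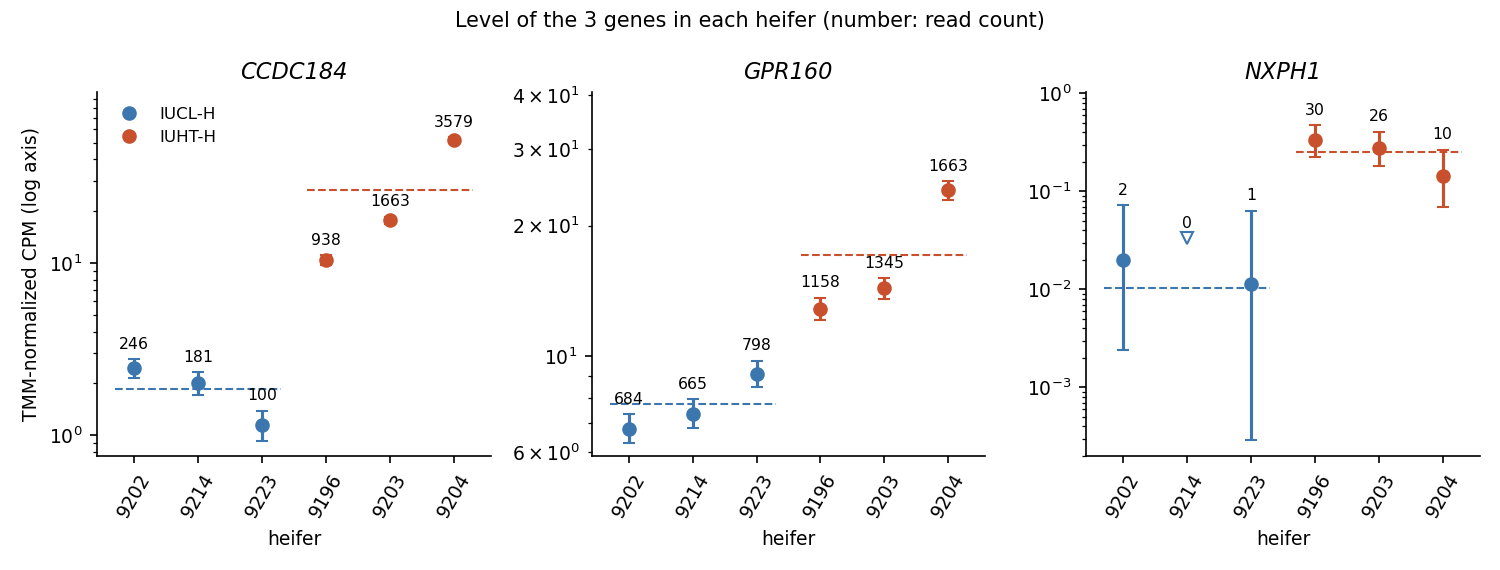
TMM-normalized CPM (log axis) of CCDC184, GPR160 and NXPH1 in each heifer, with IUCL-H in blue and IUHT-H in red. Bars are 95% exact Poisson intervals for counting error, dashed lines are group means, numbers are read counts and the open triangle is the limit of 3 counts for a count of 0; CCDC184 and GPR160 have bars that stay apart between the groups, and for NXPH1 the bars of IUHT-H 9204 and IUCL-H 9202 meet.

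Complete separation is not rare in these data. Among the 14724 genes tested, 462 had every IUHT-H above every IUCL-H (3.14%) and 430 had every IUHT-H below every IUCL-H (2.92%). Since the rule chose the 3 genes for this pattern, nothing is read from their 3 of 3. Their fold changes can be placed among all genes as a description. NXPH1 ranked 4 by log2 fold change, so that 0.0272% of the genes were at or above its value. CCDC184 ranked 7 (0.0475%), and 0.964% of the genes were at or above GPR160. The order of NXPH1 and CCDC184 depended on the prior count: with a prior count of 2, the log2 fold change of NXPH1 was 3.06 and that of CCDC184 was 3.82. The median over all tested genes was 0.0028. With library size only as the scaling, that median moved to 0.13. At the unadjusted cut-off of 0.01 in edgeR's quasi-likelihood test, 42 genes were higher in IUHT-H (0.285%) and 21 were lower (0.143%), together 0.428% of those tested. At an unadjusted cut-off of 0.05 there were 374 (2.54%), and 0 genes passed an adjusted cut-off of 0.05 in that test, against 9 in edgeR's exact test, 11 in its likelihood ratio test and 16 in DESeq2.

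**Figure D2:**
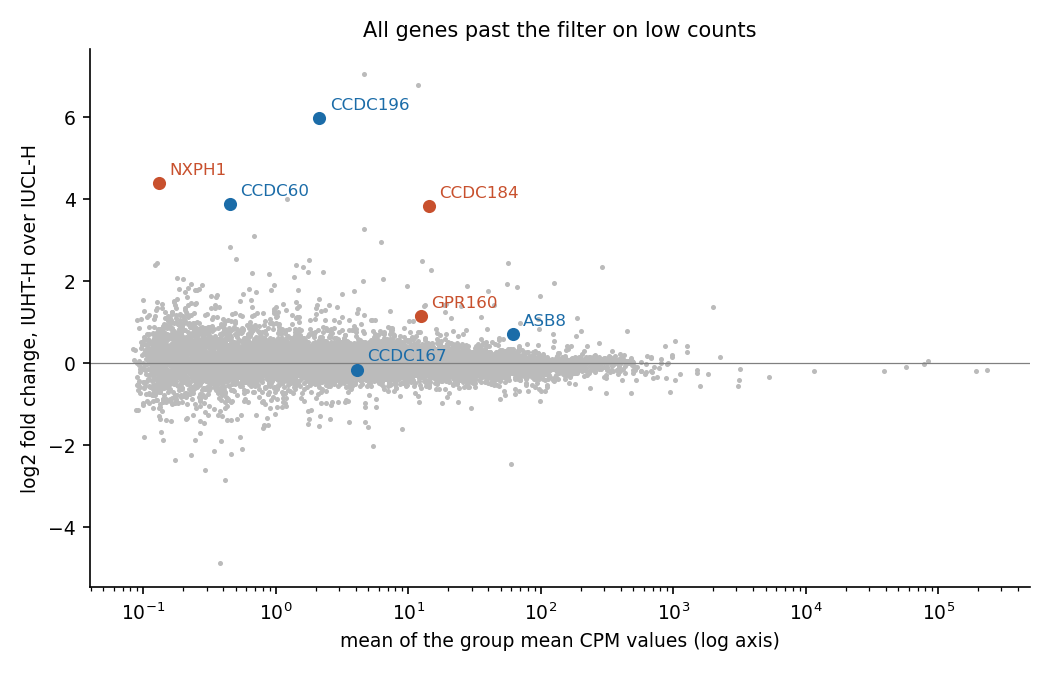
Log2 fold change (IUHT-H over IUCL-H) of each of the 14724 tested genes against the mean of the group mean CPM values (log axis), with CCDC184, GPR160 and NXPH1 in red and the neighbouring gene ASB8 and other CCDC genes in blue. NXPH1 lies at the low end of the level axis, where fold changes of single genes scatter widely, and CCDC184 lies well above the main band of genes of similar CPM, with 1 gene of that level higher still.

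Within IUHT-H, CCDC184 and GPR160 ordered the heifers alike. IUHT-H 9204 was highest, 9203 followed and 9196 was lowest for both genes, in raw counts, after TMM normalization, with library size only and relative to the counts outside the 10 most abundant genes. Of all tested genes, 20.1% had this order, and of the 462 genes with every IUHT-H on top 72 had it (15.6%), so a shared order of 3 heifers is common. Within IUCL-H the genes did not move together. CCDC184 fell from 9202 over 9214 to 9223, whereas GPR160 was highest in 9223 and lowest in 9202. With library size only, the lowest GPR160 value among IUCL-H was that of 9214, while the order of CCDC184 stayed as it was.

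The rise of CCDC184 was steeper than that of GPR160. For each GPR160 count IUCL-H 9202 had 0.360, 9214 had 0.272 and 9223 had 0.13 CCDC184 counts. The same ratio was 0.810, 1.24 and 2.15 among IUHT-H 9196, 9203 and 9204. From the lowest to the highest IUHT-H, CCDC184 changed 4.98-fold and GPR160 1.88-fold. With 3 heifers in each group, a correlation of the genes within a group was not computed, and a correlation over all 6 would restate the rule by which both were chosen.

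NXPH1 ran the other way among IUHT-H. It was highest in 9196 and lowest in 9204, an order found in 20.8% of all tested genes and opposite to that of CCDC184 and GPR160. IUHT-H 9204 thus held the highest CCDC184 and GPR160 values and the lowest NXPH1 value of its group. The counting intervals of 9196 and 9204 for NXPH1 overlapped, running from 0.225 to 0.475 CPM and from 0.0695 to 0.267 CPM. The order of NXPH1 within IUHT-H is therefore uncertain. In IUCL-H an order of NXPH1 cannot be read from 0 to 2 counts.

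**Figure D3:**
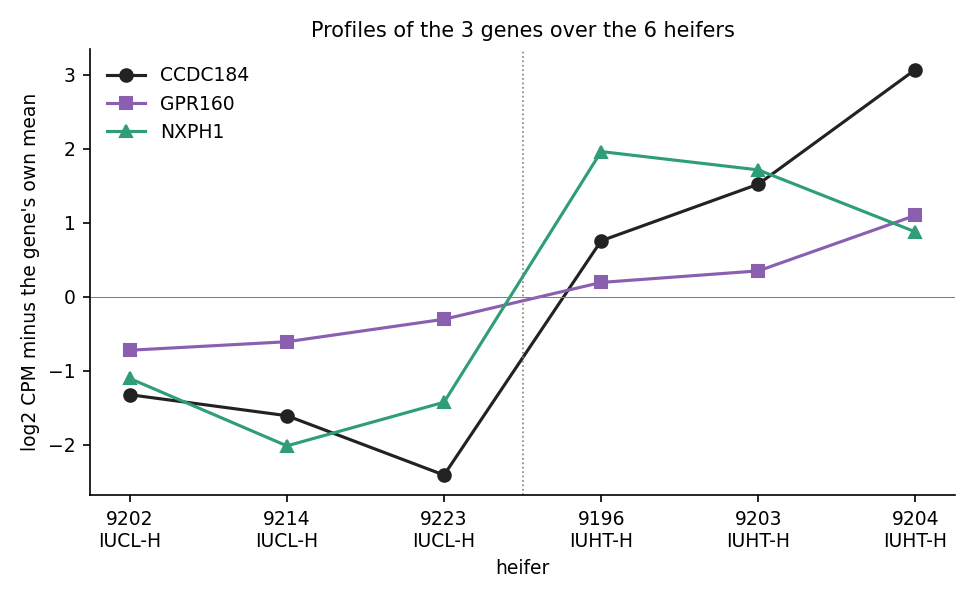
Log2 CPM (prior count 2) of CCDC184, GPR160 and NXPH1 in the 6 heifers, each minus the gene's own mean; lines join the values of a gene and carry no order of the heifers. CCDC184 and GPR160 are highest in IUHT-H 9204, and NXPH1 is highest in IUHT-H 9196.

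On the chromosome CCDC184 is followed by ASB8, which encodes a substrate receptor of a ubiquitin ligase, in the gene order of a later bovine assembly (ARS-UCD2.0). Of the 18 protein-coding neighbours looked up, 3 on each side of each gene, ASB8 (ENSBTAG00000000289) was the only one that could be paired with an identifier in the files. IUHT-H 9196, 9203 and 9204 had 53.2, 78.9 and 95.3 CPM of ASB8, against 39.7, 44.9 and 55.4 CPM for IUCL-H 9202, 9214 and 9223. The groups of ASB8 overlapped, because IUHT-H 9196 was below IUCL-H 9223, whereas with library size only, or relative to the counts outside the 10 most abundant genes, every IUHT-H was above every IUCL-H. ASB8 differed by 0.70 on the log2 scale (SE 0.22) and missed the cut-off of 0.01 in edgeR's quasi-likelihood test (unadjusted p = 0.014, adjusted p = 0.999). It passed that cut-off in edgeR's exact test (p = 0.0048) and in DESeq2 (p = 0.0029). In the quasi-likelihood test ASB8 passed with library size only (unadjusted p = 0.0024) and with no filter beyond 1 count (unadjusted p = 0.0089). The same test passed it without IUHT-H 9196 (unadjusted p = 0.0016) and missed it with any other heifer left out. The name of ASB8 came from the study's list of differentially expressed genes in these heifers, so its direction is not independent evidence.

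After TMM normalization ASB8 shared the IUHT-H order of CCDC184 but not its size, and with library size only 9203 was above 9204. The ratio of CCDC184 to ASB8 CPM ran from 0.0206 to 0.0616 among IUCL-H and was 0.196, 0.224 and 0.544 for IUHT-H 9196, 9203 and 9204. The ratio of GPR160 to ASB8 was steadier, from 0.164 to 0.171 in IUCL-H and from 0.182 to 0.253 in IUHT-H. Strand was not stated for the library or the counting, so reads from overlapping transcripts of neighbouring genes could not be told apart.

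For each of the 3 genes, the most similar profiles over the 6 heifers were sought among the other tested genes. The 3 genes themselves were left out of each search, so their distances to each other are not given. Similarity was measured by the root mean square difference of log2 CPM profiles, each centred on its own mean. For GPR160 the closest were CYP3A5, a cytochrome P450 that oxidizes drugs and steroids, at a distance of 0.249, and ASB8 at 0.259, against a median of 0.665 over all genes. IUHT-H 9196, 9203 and 9204 had 2.64, 3.02 and 4.12 CPM of CYP3A5, while the IUCL-H lay between 1.76 and 2.05 CPM. The other 3 of the 5 closest genes had no name, and none had a mean above 0.274 CPM in either group.

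No gene came as close to CCDC184. The smallest distances were 0.964 for JSP.1, a major histocompatibility complex class I gene, and 0.99 for the unnamed gene ENSBTAG00000047121, against a median of 1.95. ENSBTAG00000047121 had the same order within IUHT-H, with 10.4, 16.3 and 47.4 CPM in 9196, 9203 and 9204, but 3.47 to 7.53 CPM in IUCL-H. JSP.1 did not share that order, with 115.5, 52.9 and 120.6 CPM in 9196, 9203 and 9204. Reads of JSP.1 can be shared with closely related genes, so its counts are uncertain.

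The profile nearest to NXPH1 was that of the unnamed gene ENSBTAG00000047700 at a distance of 0.643, followed by FAM180A (0.691), JSP.1 (0.734), FRZB (0.738) and SFRP1 (0.836), against a median of 1.59. FRZB and SFRP1 encode secreted antagonists of Wnt signaling. ENSBTAG00000047700 had 268.2, 246.4 and 89.1 CPM in IUHT-H 9196, 9203 and 9204, the same order as NXPH1. FAM180A and FRZB were themselves low, each with 8, 2 and 1 counts in IUCL-H 9202, 9214 and 9223. JSP.1 and FAM180A stood among the 5 closest genes of both NXPH1 and CCDC184. All of these profiles resemble genes that were chosen for a difference between the groups, so being close to them is no evidence of a difference. Their own differences are given without a test, except that of ASB8, which was tested above as a neighbouring gene.

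**Figure D4:**
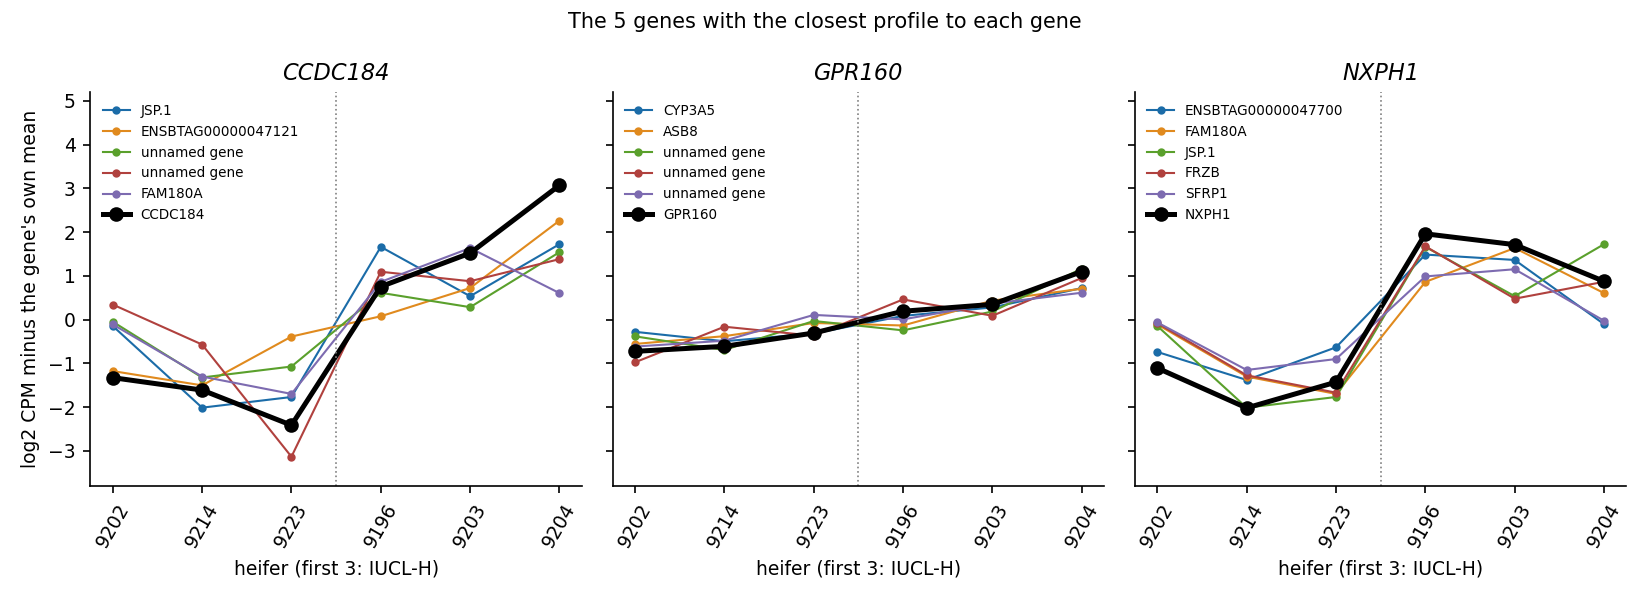
Centred log2 CPM (prior count 2) in the 6 heifers for CCDC184, GPR160 and NXPH1 (black) and the 5 genes with the closest profile to each (colours); lines join the values of a gene. The profiles stay within a narrow band around GPR160, while CCDC184 in IUHT-H 9204 lies above all 5 of its closest genes.

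Of the gene lists chosen for these genes, few members could be examined, because names were paired with identifiers for only 375 genes, those the study listed as differentially expressed or methylated. For the neurexin system of NXPH1, 1 of 23 genes could be paired. This was LRRTM4, which encodes a synaptic membrane protein that binds neurexins, and it had 0 counts in all 6 heifers, which allows a level of up to 3 counts, or 0.0298 to 0.0435 CPM depending on the library. None of the 48 genes of the orphan receptor list, which holds CARTPT, or of the 16 G protein alpha subunit genes could be paired.

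Among genes that carry a coiled-coil (CCDC) name, 4 others were paired and 3 passed the filter. They share a name and are not a family. CCDC60 and CCDC196 were higher in IUHT-H at the unadjusted cut-off of 0.01 in edgeR's quasi-likelihood test and CCDC167 was not, but the names of CCDC60 and CCDC196 came from the study's list of differentially expressed genes in these heifers, so their direction is not independent evidence. Both missed the cut-off when any 1 of the 3 IUCL-H was left out, although the log2 fold changes remained between 3.52 and 4.21 for CCDC60 and between 5.57 and 7.25 for CCDC196. Without IUHT-H 9196, which had 1 count, CCDC196 rose by 6.56 on the log2 scale. The adjusted p in edgeR's quasi-likelihood test was then 0.043, against 0.999 with all 6 heifers. In that fit 3 of 14941 genes had an adjusted p below 0.05. The omission removed the IUHT-H that lacked the increase, so the lower p-value is no added evidence. With all 6 heifers, 0.285% of all tested genes were higher in IUHT-H at the unadjusted cut-off of 0.01.

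CCDC196 did not share the separation of CCDC184. It had 487 and 510 counts in IUHT-H 9203 and 9204, but 1 count in IUHT-H 9196, against 2 to 13 counts in IUCL-H. CCDC60 had 24, 196 and 13 counts in IUHT-H 9196, 9203 and 9204 and 2 to 8 counts in IUCL-H, so that a single heifer, 9203, carried most of its increase. Without IUHT-H 9203 the log2 fold change of CCDC60 was 1.98 in place of 3.88, and it missed the cut-off. CCDC196 also missed it without IUHT-H 9203 or 9204. CCDC167 averaged 3.88 ± 0.650 CPM across IUHT-H and 4.32 ± 0.828 CPM across IUCL-H (SD, n = 3 each), a log2 difference of -0.16 (SE 0.20). CCDC154 had 4 to 17 counts per heifer and did not pass the filter.

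The fold changes of the 3 genes were computed again under other normalizations, filters and tests. CCDC184 stayed between 3.77 and 3.84 and GPR160 between 1.14 and 1.21 on the log2 scale. With any 1 heifer omitted, CCDC184 ranged from 2.91 to 4.22, GPR160 from 0.81 to 1.31 and NXPH1 from 3.88 to 5.17. The lowest values of CCDC184 and GPR160 came from the same omission, that of IUHT-H 9204, which raised NXPH1 to 4.66.

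**Figure D5:**
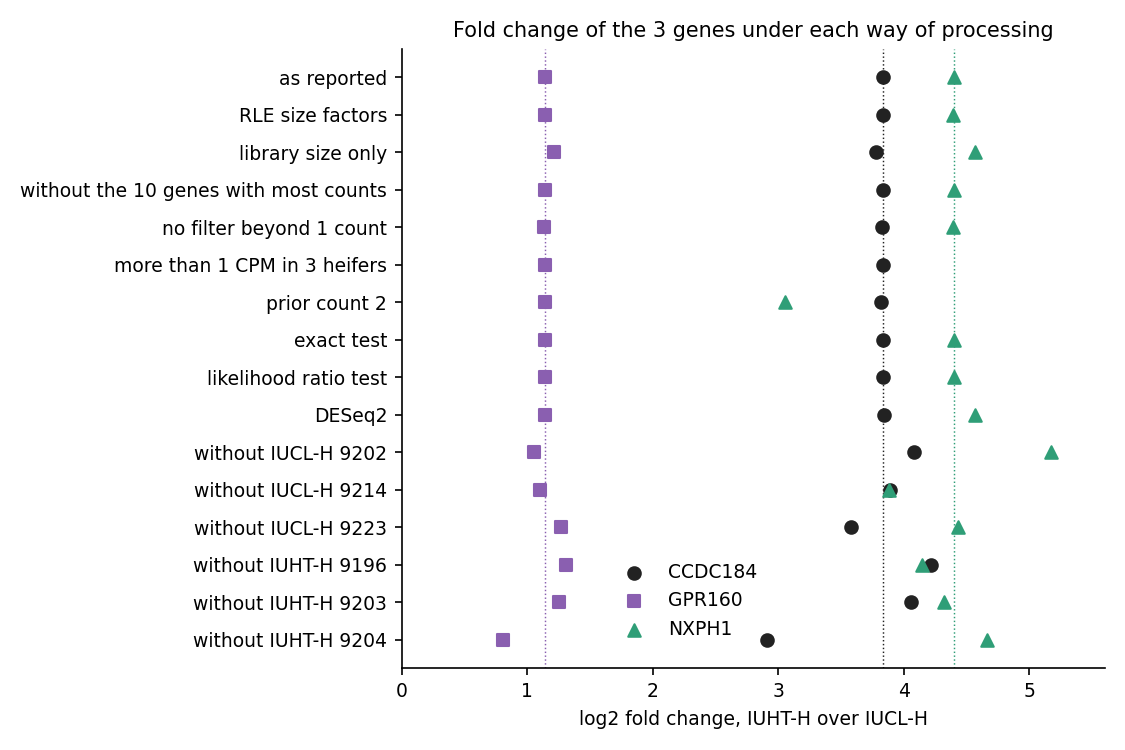
Log2 fold change (IUHT-H over IUCL-H) of CCDC184, GPR160 and NXPH1 as reported (dotted lines), under each other normalization, filter, prior count or test, and with each heifer left out. NXPH1 moves to 3.06 with a prior count of 2 and has no value where more than 1 CPM was required, and CCDC184 and GPR160 move most when IUHT-H 9204 is left out.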

How the data were processed

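The authors mapped 100-base paired-end reads with Tophat (2.0.13) and deposited raw read counts of each heifer by Ensembl gene, without normalization. HTSeq is named in the submitters' processing notes. The genome is given as UMD3.1 in those notes and as bosTau7 in the study's methods, so no coordinates are printed. From the deposited counts, edgeR (4.0.16, R 4.3.3) was used with filterByExpr (minimum count 10), TMM normalization and the quasi-likelihood test over all 6 heifers without covariates. The study's unadjusted cut-off of 0.01 was used, and adjusted p-values are Benjamini-Hochberg values over all genes tested. Standard errors are the log2 fold change divided by the square root of the F statistic. No pair of heifers had equal counts in more than 0.924% of tested genes. The scripts were tested on simulated data.

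The members and lists were chosen with earlier results of these data known. Named genes were the 3 genes, the 5 other genes with the closest profile to each, neighbouring genes and the neurexin list. From other lists, genes passing that cut-off were named, or otherwise the 2 most abundant. CCDC154 and CCDC167 were named beyond this rule, and 5 of the 7 unnamed closest genes are given without identifier. Gene names came from the study's supplementary tables, whose fold changes and P-values were not used. Promoters and proteins were not analysed here.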

Additional observations from a re-analysis of the deposited data

How the results depend on the processing

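No paired analysis was possible because the labels give animal numbers that no 2 groups share. Across 9 other settings CCDC184 and GPR160 moved by less than their spread between heifers, and NXPH1 moved with a prior count of 2, to a log2 fold change of 3.06, by construction of the prior. With each heifer left out, NXPH1 ranged from 3.88 to 5.17. Genes at P ≤ 0.01 numbered 63 in edgeR's quasi-likelihood test (42 higher and 21 lower in IUHT-H), 108 in the exact test, 112 in the likelihood ratio test and 124 in DESeq2, and from 38 to 246 with each heifer left out. Library size only gave 36 higher and 8 lower. Adjusted p-values below 0.05 numbered 0, 9, 11 and 16 in the same tests, and 374 genes had an unadjusted p below 0.05 in the first. Genes without overlap between the groups numbered 892, 412 with library size only, and from 1576 to 3773 with each heifer left out, where a group had fewer heifers. Calls among the listed genes, which include the neighbouring gene ASB8, numbered 2, CCDC60 and CCDC196. They fell to 0 where more than 1 CPM in 3 heifers was required, which removed both CCDC60 and CCDC196. With each heifer left out the calls ranged from 0 to 3, and the third gene was ASB8. NXPH1 had no value under that filter. The motif search in promoters was not run. Depth limited NXPH1 most, with 3 counts at between 0.0298 and 0.0435 CPM.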
